A study of Mus musculus with 2 samples.

Results

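The Snrpn and Ube3a imprinted domain of mouse chromosome 7 was taken as the 5 genes Ube3a, Snrpn, Ndn, Magel2 and Mkrn3, of 21938 protein-coding genes in GENCODE M21. The stretch examined was their joint span with 100 kb beside it, chr7:59128750-62520139 in mm10, a length of 3391 kb. The rule takes the genes by name and the peaks by position, and uses no peak value. Of 74283 optimal CTCF peaks on chromosomes, 25 had their summit there. The data are ChIP-seq of CTCF, in which DNA bound by the protein is enriched with an antibody and sequenced, from whole stomach tissue of newborn mice (strain B6NCrl, postnatal, age 0 day). There was 1 group, untreated as far as the labels say, with biological replicates 1 and 2. The labels give both replicates the same donor and the same biosample, so the spread between them may be technical, and the sex was not collected. The values are those of bulk tissue from 1 strain, so the maternal and paternal chromosomes cannot be told apart, nor a few cells with strong binding from many with weak binding.

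Imprinted genes are expressed mainly from the chromosome of 1 parent. In this domain, the mouse counterpart of the human Prader-Willi and Angelman region, an imprinting centre at the start of Snrpn is methylated on the maternal chromosome. Snrpn, Ndn, Magel2 and Mkrn3 are expressed from the paternal chromosome. Ube3a is expressed from the maternal chromosome in neurons and from both in most other tissues. CTCF is a zinc finger protein found at insulators and at the feet of chromatin loops, and the direction of its DNA motif relates to which sites are joined in a loop. At other imprinted loci, such as the Igf2 and H19 control region, it binds only the unmethylated copy.

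The sequences under the domain's peaks are given first, since the results turn on which of them carry the CTCF motif, on which strand, and how often they recur. The motif was a matrix of 19 positions with the consensus NNNCCACNAGGGGGCNCNN, built from 1000 strong peaks of chromosome 1, and a match was a score reached by 1% of genomic windows. Those windows were off chromosome 1 and centred more than 300 bp from any optimal summit. Each site is written 5′ to 3′ on the strand of its motif, with the 19 matched bases in capitals, and coordinates are mm10. Those at Ube3a, the recurring site between Snrpn as GENCODE M21 places it and Ndn, and those from Magel2 to Peg12 are shown.
Ube3a first exon, chr7:59228982-59229010, minus strand: gaagaGAAGCAGAAGGAGGCGCCAccgtc
Ube3a, in the gene, chr7:59245722-59245750, plus strand: cacatAGGCCAGAAGAGGGCATCAgtgct
Recurring site, copy A, chr7:60238973-60239001, plus strand: attttTGGACGGTAGATGGCGGTGtgcac
Recurring site, copy B, chr7:60387146-60387174, plus strand: attttTGGACGGTAGATGGCGGTGtgcac
Recurring site, copy C, chr7:60488229-60488257, plus strand: attttTGGACGGTAGATGGCGGTGtgcac
Recurring site, copy D, chr7:60617451-60617479, plus strand: atgttTGGACGGTAGATGGCGGTGtgcac
Recurring site, copy E, chr7:60728506-60728534, plus strand: attttTGGCCGGTAGATGGCGGTGtgcac
Magel2 upstream, chr7:62375835-62375863, minus strand: gaaagAAACCACTAGGGGGCAGAAgagaa
Magel2 downstream, chr7:62382594-62382622, minus strand: ctagtTGGCCAGTAGGTGGCAGAAaagtt
Magel2 to Mkrn3, nearer Magel2, chr7:62388480-62388508, minus strand: ccctgTTGCCACCAGAGGGAGAAAtagga
Magel2 to Mkrn3, strongest peak, first site, chr7:62400280-62400308, minus strand: aatatTGACCACCAGAGGGCGGACgagga
Magel2 to Mkrn3, strongest peak, second site, chr7:62400362-62400390, minus strand: caatgTGGCCACCAGAGGGAGACAtgggc
Mkrn3 upstream, first peak, chr7:62428519-62428547, minus strand: acatgTAACCACTGGAGGGCGCACatgta
Mkrn3 upstream, second peak, chr7:62433448-62433476, minus strand: acatgTAACCACTAGAGGGCACACatgta
Mkrn3 upstream, farthest peak, chr7:62436547-62436575, plus strand: agtacCAGCCACTAGAGGGCCACAtgctt
Peg12 start, first site, chr7:62464615-62464643, plus strand: aatcaTTGCCACCAGAGGGACTCAtatat
Peg12 start, second site, chr7:62464686-62464714, plus strand: cttacGGGCCACCAGAAGGCAGACgatgc

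CTCF peaks were sparse in the domain and unevenly placed. The 25 optimal peaks came to 7.48 per Mb of non-gap sequence, against 34.3 per Mb on chromosome 7 and 30.3 per Mb on the 19 autosomes. When the autosomes were cut into 697 adjacent windows of the domain's length, 77 of them (11.0%) held peaks at or below that density, and the median window held 26.1 per Mb. On chromosome 7 itself, 4 of 41 such windows (9.76%) were at or below it. So the domain was among the sparser stretches of the genome without standing outside their range, which began at 0.

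The individual peaks were not weak. Signal, the authors' deposited value for each peak, had a median of 110 in the domain against 79.6 on chromosome 7 and 76.6 over all optimal peaks. It ran from 20.4 to 364, and 16 of the 25 peaks were above the median of all optimal peaks. The domain was richer in repeat-masked bases (46.9%) than chromosome 7 (35.4%) and lower in GC content (38.7% against 43.1%). It also held fewer motif matches, 58.7 per Mb against 162 per Mb on chromosome 7. The part of these features in the low density was not tested.

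The relaxed lists, which keep 300000 peaks each down to very low signal, were sparse in the domain as well. The relaxed list of both replicates together held 74 peaks there (22.1 per Mb, against 134 on chromosome 7). That of replicate 1 held 78 (23.3 per Mb, against 133) and that of replicate 2 held 99 (29.6 per Mb, against 128). Lowering the threshold therefore left the domain below the rest of its chromosome in each list. Of the other imprinted domains on this chromosome, the span of Peg3, Zim1 and Usp29 held 16 optimal peaks (32.3 per Mb) and that of Igf2, H19 and Kcnq1 held 80 (70.9 per Mb).

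**Figure D1:**
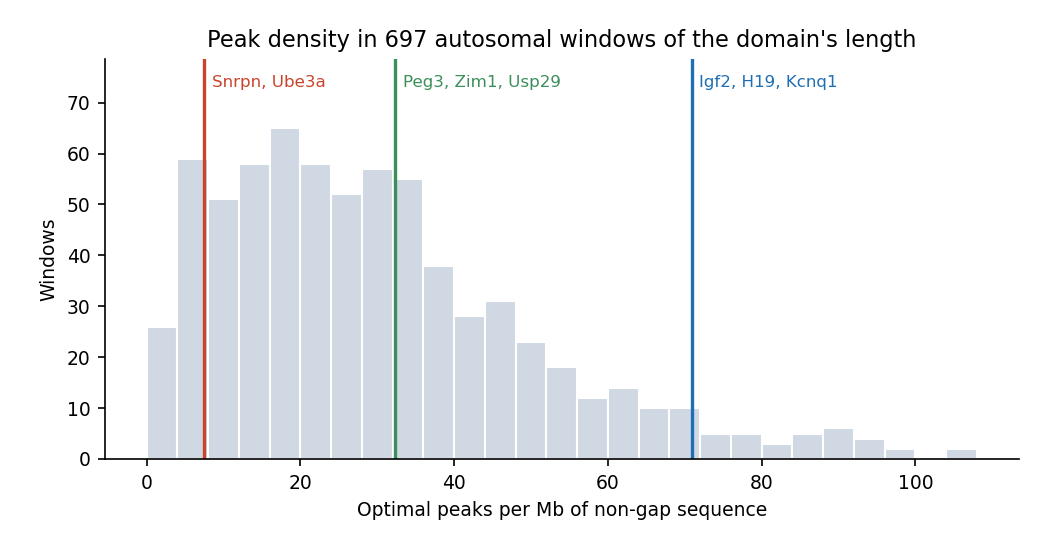
Histogram of optimal peaks per Mb of non-gap sequence (x axis) over 697 adjacent autosomal windows as long as the domain (y axis, number of windows), with vertical lines at the densities of 3 imprinted domains, of which the Peg3 and Igf2 spans are shorter than a window. The Snrpn and Ube3a line sits at 7.48, near the low end, with 77 windows at or below it.

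Within the domain the peaks gathered at its Ndn end. The stretch from Ndn to Mkrn3 with 100 kb on either side (chr7:62246569-62520139, 273.6 kb) held 8 peaks, or 29.2 per Mb, close to the density of the autosomes. The stretch from Ube3a to Snrpn with the same margins (chr7:59128750-60240219) held 6 peaks, or 5.65 per Mb, and the 2006 kb between the 2 stretches held 11, or 5.48 per Mb. Median signal was 193 in the Ndn stretch, 30.0 in the Ube3a and Snrpn stretch and 87.8 between them. These boundaries were drawn after the peaks had been seen, so the contrast is a description.

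**Figure D2:**
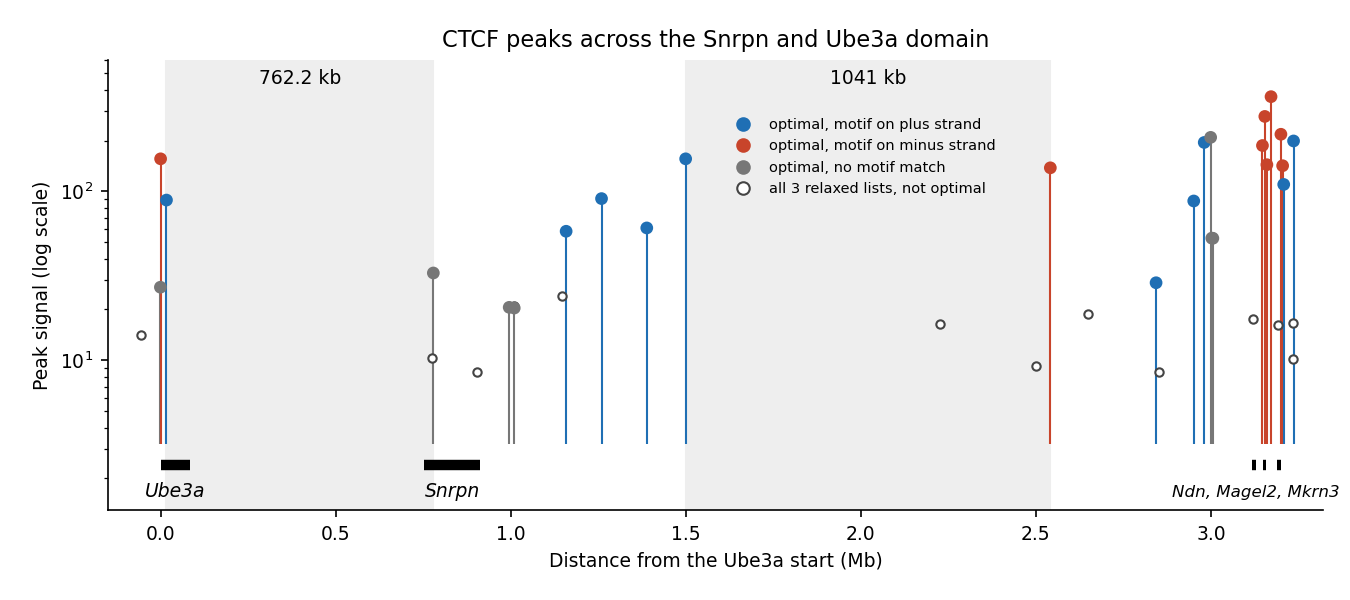
Signal of each CTCF peak (y axis, log scale) against its distance from the Ube3a start (x axis, Mb), with optimal peaks as filled points coloured by the strand of their motif, peaks in all 3 relaxed lists but not the optimal one as open points, and black bars for the 5 member genes. The shaded stretches of 762.2 kb and 1041 kb hold no optimal peak, and the red and blue points crowd at the right, around Ndn, Magel2 and Mkrn3.

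The longest stretch without an optimal peak ran 1041 kb, from the summit at 60728535 to that at 61770028. Its left peak, chr7:60728417-60728597, had a signal of 156, with 80.8 in replicate 1 and 74.1 in replicate 2. Its right peak, chr7:61769949-61770118, in an intron of A230057D06Rik, had a signal of 138, with 73.9 and 62.0. The stretch thus had a strong peak at each end, both found in each replicate. Of 72495 intervals between neighbouring optimal peaks on the autosomes, 87 were as long or longer, and the median interval was 12122 bp. The annotation places 21 genes in it, none of them protein-coding. It was 45.2% repeat-masked with no assembly gap, and it held 48 motif matches, of which 13 lay in unmasked sequence.

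The relaxed lists did not fill this stretch with shared peaks. They held 10 peaks there in the list of both replicates together, 15 in replicate 1 and 19 in replicate 2, and 2 of the 15 were found in replicate 2 within 100 bp. The strongest, at 61455975, had a signal of 16.4, with 9.19 and 3.87 in the replicates, and carried a motif match. Its signal was far below that of either peak at the stretch's ends.

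The stretch of 762.2 kb between Ube3a and Snrpn (summits 59245734 and 60007915) was next in length, with 173 autosomal intervals as long or longer. It covers the small nucleolar RNA genes that lie between Snrpn and Ube3a and are transcribed from the paternal chromosome. GENCODE M21 gives 223 genes in it, of which 210 are small nucleolar RNAs, a class that guides chemical modification of other RNAs. It was 62.5% repeat-masked, held an assembly gap of 50000 bp, and had 23 motif matches, of which 3 lay in unmasked sequence. The relaxed lists held 6, 8 and 11 peaks in it for both replicates together, replicate 1 and replicate 2. Only 1 of the 8 was found in replicate 2, and it was the peak at the Snrpn start described below. How far reads could be placed in the repeated genes of this stretch was not tested.

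The third stretch was 302.0 kb long, between the summits at 61770028 and 62072028, and 927 autosomal intervals were as long or longer. Its right peak, chr7:62071880-62072175, was weak, with a signal of 28.8 and values of 14.2 and 12.4 in the replicates. The strongest relaxed peak inside, at 61878793, had a signal of 18.9, with 7.65 in replicate 1 and 10.8 in replicate 2, carried a motif match, and lay in an intron of A230057D06Rik near the microRNA gene Mir344. It was the only peak of the third stretch present in all 3 relaxed lists.

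Ube3a, which encodes a ubiquitin ligase, was the only member with an optimal peak within 1 kb of a start. The share of all protein-coding genes with an optimal peak that near was not counted, so this is a description. It lies on the plus strand at chr7:59228750-59311536, and GENCODE M21 gives it 18 transcripts with 16 starts. The main peak, chr7:59228899-59229084, lay in an untranslated exon 172 bp after the nearest start. Its signal was 156 in the optimal list, 101 in replicate 1 and 54.4 in replicate 2. Its motif match, the first of the sites listed above, was on the minus strand, so it faced away from the gene body. The match lay in repeat-masked sequence and was weak. Its score of 12.46 was just above the threshold of 11.52 and below the stricter one of 16.60. Its direction is therefore uncertain. A weaker peak lay 366 bp before the first start (chr7:59228236-59228531), with a signal of 27.1 and replicate values of 13.0 and 12.8, and no motif match. It fell in a noncoding exon of 9330162G02Rik, and the peaks give no strand by which overlapping genes could be separated.

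A further Ube3a peak, chr7:59245586-59245881, lay 2826 bp after a later start, with a signal of 88.9 and replicate values of 58.2 and 29.9. Its motif was on the plus strand. The 2 peaks with motifs were 16740 bp apart and faced away from each other, with the direction at the main peak resting on its weak match. The ratio of replicate 1 to replicate 2 was 1.86 at the main peak and 1.95 at the further one. No optimal peak lay in the remainder of the gene, since the next summit was the one near Snrpn.

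Snrpn, which encodes a protein of the small nuclear ribonucleoproteins that splice RNA, had a weak optimal peak near 1 of its starts and none at the start itself. It lies on the minus strand at chr7:59982495-60140219, with GENCODE M21 starts at 60005111 and 60140219. The peak, chr7:60007767-60008062, was in an intron 2804 bp upstream of the start at 60005111. Its signal was 32.9, with 12.4 in replicate 1 and 18.4 in replicate 2. It was absent from the conservative list and ranked 75386 in replicate 1, outside the 74283 strongest peaks of that replicate, and 49395 in replicate 2. The nearest conservative peak to a GENCODE start of Snrpn was 233964 bp away. RefSeq gives a further start at 60450177, and the conservative peak at copy C of the recurring site lay 38078 bp from it. No motif match lay within 50 bp of the summit, whose surroundings (151 bases, plus strand, chr7:60007840-60007990) show no capitals for that reason.
Snrpn upstream peak: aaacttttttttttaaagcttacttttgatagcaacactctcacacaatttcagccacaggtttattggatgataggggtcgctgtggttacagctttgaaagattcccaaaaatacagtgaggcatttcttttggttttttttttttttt

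At the Snrpn start itself, the site of the imprinting centre, only relaxed peaks were found, and they were found in all 3 relaxed lists. In the list of both replicates together the summit lay 18 bp upstream of the start at 60005111, with a signal of 10.3 and rank 121361. In replicate 1 it lay 51 bp upstream with a signal of 6.48, and in replicate 2 it lay 14 bp upstream with a signal of 4.45. These values stood a little above the median signals of the whole relaxed lists, which were 8.22, 5.23 and 4.08. None of the 3 summits had a motif match within 50 bp. At the other GENCODE start of Snrpn, 60140219, the strongest relaxed peak within 10 kb lay 6584 bp into the gene, with a signal of 8.56 and replicate values of 3.89 and 2.99.

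Ndn, Magel2 and Mkrn3 are short genes that lie close together, and each had a different arrangement of peaks. Ndn encodes necdin, a protein of the MAGE family expressed in neurons. It lies on the plus strand at chr7:62346569-62350262 and had no optimal peak within 10 kb, the nearest being 29284 bp downstream. A relaxed peak was present in all 3 lists, with signals of 17.5 in both replicates together, 7.91 in replicate 1 and 8.43 in replicate 2. Its summit lay 1594 bp after the GENCODE start and 114 bp before the start that RefSeq gives, so the annotation decides whether it counts as a peak at the gene's start. It had no motif match. Replicate 1 held another relaxed peak, with a signal of 4.03, in the coding exon.

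Magel2, which encodes another protein of the MAGE family, lay between strong peaks. The gene is on the plus strand at chr7:62377010-62381640. The peak before it, chr7:62375743-62375970, was 1157 bp from the start, with a signal of 187 and replicate values of 117 and 69.7. The peak after it, chr7:62382489-62382725, was 5600 bp from the start and beyond the gene's end, with a signal of 278 and replicate values of 154 and 125. Both had minus strand motifs, and both fell in an intron of the noncoding gene Gm32061. Between them, in the coding exon of Magel2, the list of both replicates together held a peak with a signal of 6.49 and replicate 2 one of 3.37, while replicate 1 listed none there.

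Mkrn3, which encodes a RING finger ubiquitin ligase known as a brake on puberty, is on the minus strand at chr7:62417593-62420139. Its only optimal peak within 10 kb, chr7:62428422-62428650, lay 8398 bp upstream, with a signal of 218 and replicate values of 117 and 103. Downstream, 19796 bp from the start, lay the strongest peak of the domain, chr7:62400178-62400504. Its signal of 364 ranked 8342 of all optimal peaks, within the upper 11.2%, with 201 in replicate 1 and 170 in replicate 2. It carried a pair of motif matches on the minus strand, the first and second sites of the strongest peak listed above. At the Mkrn3 start itself a relaxed peak lay 61 bp upstream, with a signal of 16.2, replicate values of 7.71 and 6.54, and no motif match. The Ndn and Mkrn3 relaxed peaks were alike in level, and both were stronger than the one at the Snrpn start.

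**Figure D3:**
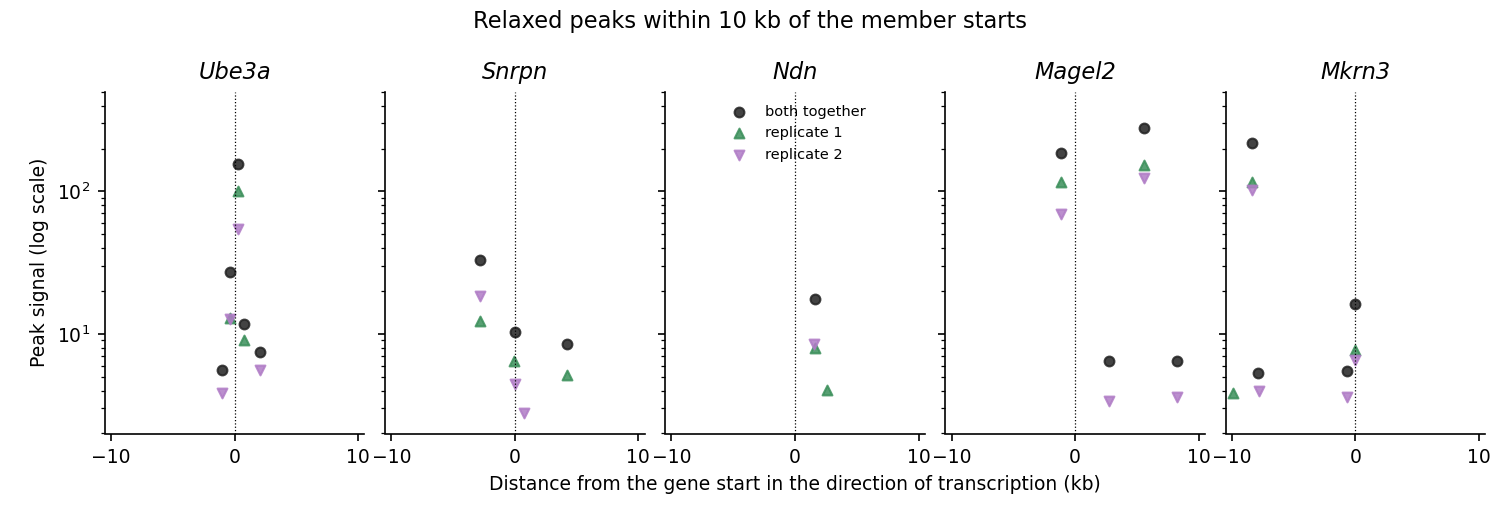
Signal (y axis, log scale) of relaxed peaks against distance from the gene start in the direction of transcription (x axis, kb) for the 5 members, in the list of both replicates together (circles) and in each replicate (triangles); for Snrpn the start at 60005111 is used. Strong peaks of over 100 lie beside Ube3a, Magel2 and Mkrn3, while Snrpn and Ndn show only peaks below 40.

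With 10 kb as the distance, 4 of the 5 members had an optimal peak near a start (Ube3a, Snrpn, Magel2 and Mkrn3), against 72.3% of all protein-coding genes. The exact Clopper-Pearson 95% interval for 4 of 5 ran from 28.4% to 99.5%, so the count says nothing particular of these genes. A relaxed peak in each replicate within 1 kb of a GENCODE start was found at 3 of the 5 (Ube3a, Snrpn and Mkrn3), against 67.0% of protein-coding genes, and at 4 with RefSeq starts, which added Ndn. These counts include strong peaks, such as that of Ube3a. In the conservative list the count within 10 kb was 3, since Snrpn dropped out.

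The sequences before the RefSeq starts with a relaxed peak within 1 kb in each replicate differed in CpG content, the dinucleotide at which imprinting marks are laid down. In the 250 bases before each RefSeq start, CG occurred 24 times at Ube3a, 10 times at Mkrn3, 5 times at Ndn and 3 times at the Snrpn start near 60005111. Across 32851 RefSeq promoters of the same length the median was 6, and 12.0%, 37.8%, 55.6% and 71.0% of them had at least 24, 10, 5 and 3. These 250 bases stop at the RefSeq start, and the relaxed summits at the Snrpn start lay 37 to 74 bp beyond it, inside the gene. CG was not counted there, so the number is not one for the imprinting centre. The stretches of Ube3a, Snrpn and Mkrn3 follow, on the strand of the gene, from RefSeq on GRCm38.p6, with each CG in capitals. No motif match lay at the relaxed summits beside the Snrpn and Mkrn3 stretches, which says only that the motif was not found in those windows.
Ube3a promoter, chr7:59228500-59228749: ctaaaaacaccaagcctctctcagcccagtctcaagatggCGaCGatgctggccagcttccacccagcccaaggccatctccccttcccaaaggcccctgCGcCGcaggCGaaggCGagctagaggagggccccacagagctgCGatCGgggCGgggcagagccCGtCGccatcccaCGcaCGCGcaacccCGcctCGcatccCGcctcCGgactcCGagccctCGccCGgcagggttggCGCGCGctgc
Snrpn promoter, chr7:60005200-60005449: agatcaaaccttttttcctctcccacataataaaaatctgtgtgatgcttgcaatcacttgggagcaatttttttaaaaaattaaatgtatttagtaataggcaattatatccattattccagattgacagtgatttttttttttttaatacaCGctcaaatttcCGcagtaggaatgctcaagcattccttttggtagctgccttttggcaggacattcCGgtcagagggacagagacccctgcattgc
Mkrn3 promoter, chr7:62420154-62420403: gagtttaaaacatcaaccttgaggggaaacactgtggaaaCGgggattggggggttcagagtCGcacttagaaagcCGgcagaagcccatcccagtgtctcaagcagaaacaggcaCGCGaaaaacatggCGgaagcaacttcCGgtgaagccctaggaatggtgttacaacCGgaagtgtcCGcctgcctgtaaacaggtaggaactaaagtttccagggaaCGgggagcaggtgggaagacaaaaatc

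Of 13 other genes of the wider region, 10 had an optimal peak within 10 kb of a start, against 72.3% of all protein-coding genes. They included Peg12, Atp10a, Gabra5 and Herc2, while Snhg14, Oca2 and Nipa1 had none. Of the 13, only Snurf, Snhg14 and Peg12 start in the stretch examined, so the count says little of the domain. Peg12, a paternally expressed gene of the Frat family beside Mkrn3, had a peak 163 bp before its start (chr7:62464537-62464789). Its signal was 199, with 102 in each replicate. It had a pair of plus strand motif matches, and of Ndn, Magel2, Mkrn3 and Peg12 it was the only gene with an optimal peak within 1 kb of a start. How many of all protein-coding genes have such a peak was not counted. The relaxed lists added a peak in the untranslated exon of Peg12 with a signal of 16.7 and another in its coding exon with 10.2, each present in all 3 lists.

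The motifs around Ndn, Magel2 and Mkrn3 faced one way in a long run. Going from the Ndn side to the Mkrn3 side, the 6 peaks with summits at 62375853, 62382610, 62388491, 62400343, 62428537 and 62433468 all had minus strand motifs. The next peaks, at 62436557 and 62464673, had plus strand motifs. On the other side of Ndn, the 3 nearest peaks with a motif, at 62209561, 62179606 and 62072028, were all on the plus strand. Ndn therefore lay in an interval of 166292 bp between a plus strand motif on its left and a minus strand motif on its right, which point towards each other. Over the autosomes other than chromosome 1, 3.97% of all sets of 6 neighbouring peaks with motifs had them on 1 strand, and 52.8% of neighbouring pairs did. Such a run was uncommon but not rare in this genome, and it was noticed before it was counted.

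**Figure D4:**
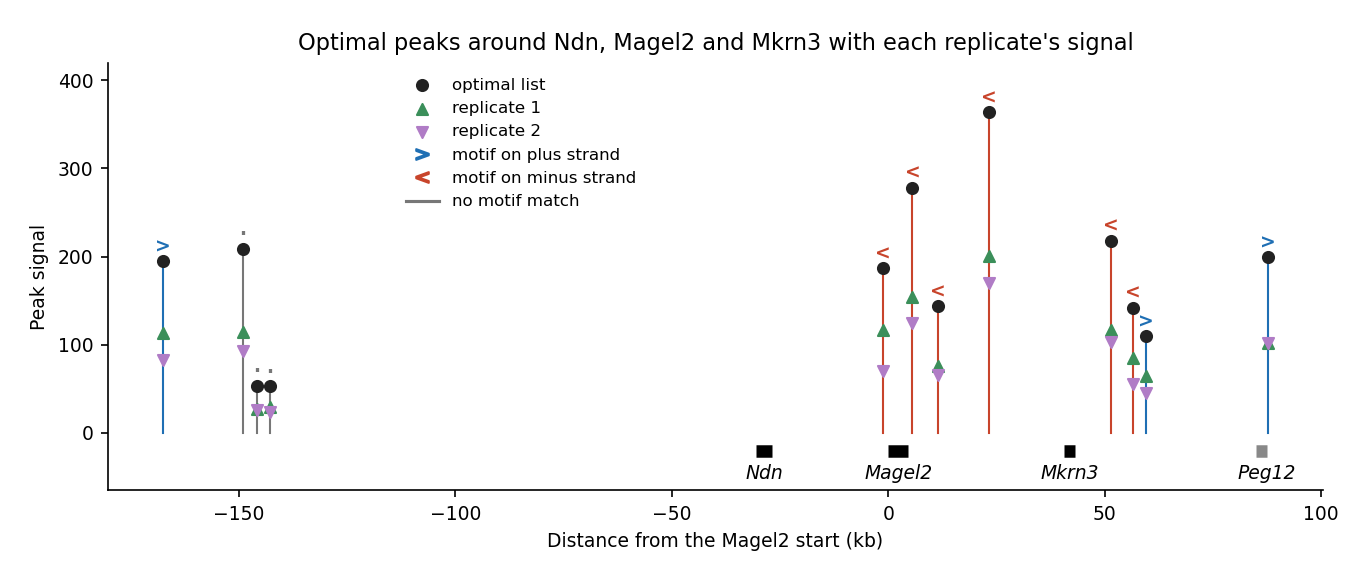
Signal (y axis) of optimal peaks around Ndn, Magel2 and Mkrn3 against distance from the Magel2 start (x axis, kb), with the value in the optimal list and in each replicate and the strand of the motif marked on top. The 6 peaks from Magel2 to beyond Mkrn3 carry minus strand motifs, and the optimal peak nearest the Ndn start lies 29284 bp away.

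Upstream of Ndn, 3 peaks in a row had no motif match, the nearest of them 112376 bp before its start. The first, chr7:62227798-62228007, had a signal of 209, with 114 and 92.8 in the replicates, which placed it among the 5 strongest of the domain. The others, chr7:62231042-62231337 and chr7:62234045-62234340, had signals of 52.9 and 52.8. The replicate values were 27.1 and 25.8 at the former and 29.7 and 24.1 at the latter. All 3 were in the conservative list, so a strong and repeatable peak here did not always go with a match to the matrix.

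Between Snrpn as GENCODE M21 places it and the longest stretch without a peak, 5 of the 6 peaks shared a site. By the RefSeq start at 60450177, copies A and B would lie inside Snrpn. The 19 bases of copies A to D were identical, and no further exact copy was present on chromosome 7, on either strand. All were on the plus strand and each had its centre within 50 bp of an optimal summit. Their signals were 20.4, 58.1, 90.7 and 60.8 in the order A to D. Copy E differed by A4C, counted from 1 at the first capital base of copy A, and had the highest signal, 156. The replicate 1 values from A to E were 15.4, 38.5, 47.5, 35.9 and 80.8. Replicate 2 gave 18.8, 42.2, 23.6 and 74.1 at B to E, and listed no peak at A. So the order of the 4 copies from B to E was the same in replicate 2 as in the optimal list, whereas replicate 1 had D below B.

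The likeness went beyond the site. Around the motif, 169 bases of the copies B to E were 89.9% to 95.9% identical in pairs without gaps, and the summits at neighbouring copies lay 101098, 129211 and 111069 bp apart. With up to 3 mismatches to copy A, 22 sites were present on chromosome 7, of which 7 were in the domain. Of those 7, 6 were on the plus strand and the same number had an optimal peak, against 2 of the 15 sites elsewhere on the chromosome. The sixth was at the peak of signal 209 upstream of Ndn described above (C5T, T8C and G17A), whose score was below the threshold for a match. Copy A was taken as the reference because peaks of the domain share it, so copies A to E had peaks by choice. The sites elsewhere also differed more, most of them at 3 bases. The comparison is therefore a description and no test. Reads from near-identical copies can be shared between them, so the signals of copies A to E are uncertain, and how the authors' processing placed such reads was not tested.

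The first and second peaks upstream of Mkrn3 also had like sites. Their 29 bases differed by G14A and G21A, counted from 1 at the first base shown, over a distance of 4931 bp, while 169 bases around them were 63.3% identical. The signals were 218 and 142.

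The second Ube3a site, at chr7:59245722-59245750, stood apart in its number of copies. Its 19 bases, in repeat-masked sequence, occurred 92 times on chromosome 7. Of these exact copies, 54 (58.7%) had an optimal peak within 50 bp, and the one in Ube3a was the only one in the domain. The highest-scoring motif of the domain (26.12), at the weak peak at 62072028, had 5 exact copies on the chromosome, 4 of them with a peak. Its own signal of 28.8 was the lowest among the 18 domain peaks with a match.

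Of the 25 optimal peaks, 18 (72.0%, exact Clopper-Pearson 95% interval 50.6 to 87.9) had a motif match within 50 bp of the summit, against 71.0% of all optimal peaks outside chromosome 1. The intervals here cover counting error only. The 7 without a match were the weak Ube3a peak, the Snrpn peak, the 2 peaks at 60224577 and 60238937 with signals of 20.6 and 20.4, and the 3 upstream of Ndn. The one at 60238937 has the centre of copy A 50 bp from its summit, so the site ran past the window's edge and was not counted. From Ndn to Mkrn3 with 100 kb on either side, all 8 peaks had a match. That stretch begins at 62246569, just past the 3 unmatched peaks upstream of Ndn, the last with its summit at 62234193. The count of 8 therefore depends on where the edge was set.

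Read the other way, 21 of the 196 motif matches in the domain (10.7%, interval 6.76 to 15.9) had an optimal peak, against 15.7% on the autosomes other than chromosome 1. In unmasked sequence the share was 18 of 81 (22.2%, interval 13.7 to 32.8), against 20.6%, which lies within the interval. The split within the domain was wide. From Ndn to Mkrn3, 10 of 15 unmasked matches had a peak (66.7%, interval 38.4 to 88.2), from Ube3a to Snrpn 1 of 12 (8.33%, interval 0.211 to 38.5), and between them 7 of 54 (13.0%, interval 5.37 to 24.9). Since these stretches were drawn with the peaks in view, the shares describe where the peaks lay and are no test.

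Most domain peaks were found in both replicates. The optimal and conservative lists come from a filter on how well peak ranks repeat, so this is in part built in. Of the 25, 22 (88.0%, interval 68.8 to 97.5) were among the strongest peaks of each replicate, against 83.2% of all optimal peaks. With the whole relaxed lists, 24 of 25 were in both, against 72160 of all 74283 optimal peaks. The same number, 22 of 25 (88.0%), had a conservative peak within 100 bp, against 88.5% overall. The 3 exceptions were the same in both counts, the Snrpn peak and the peaks at 60224577 and 60238937, and they were neighbours along the chromosome. Both counts rest on the same replicates and are not independent of each other. Replicate 2 gave no value within 100 bp of 60238937.

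At the 24 peaks with a value in each, replicate 1 was higher at 23. The ratio of replicate 1 to replicate 2 had a median of 1.23 and ran from 0.672 to 2.70, against a median of 1.33 and a range from 0.826 to 2.62 for the central 90% of all optimal peaks. The Snrpn peak had the lowest ratio and was the only one higher in replicate 2, and the peak at 60224577 had the highest, with 16.3 against 6.03. Signals are not scaled between lists, so a ratio other than 1 is no difference in binding. The values of the 2 replicates ranked the 24 peaks nearly alike (Spearman's rho 0.95 across peaks, which share libraries and are not independent).

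**Figure D5:**
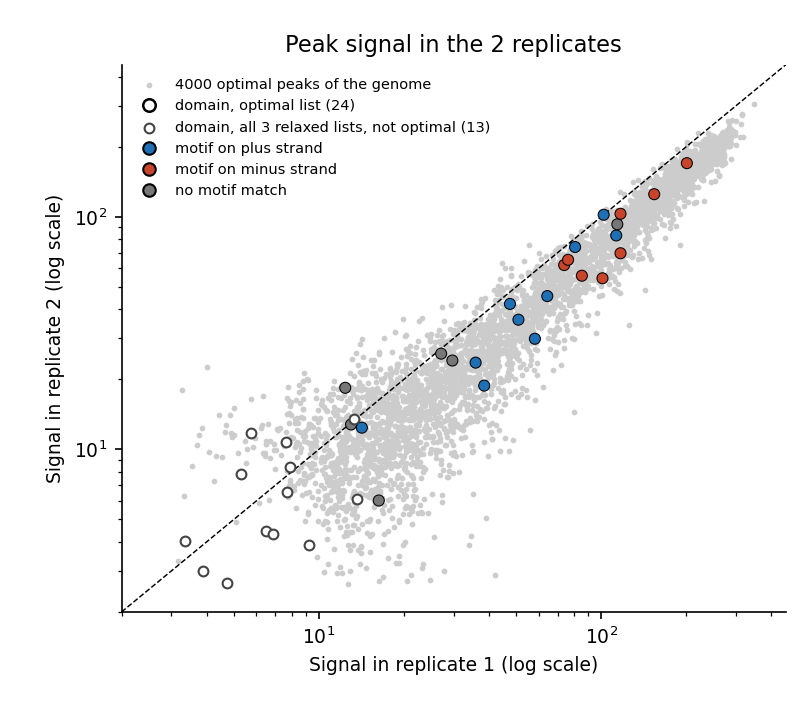
Signal in replicate 1 (x axis) against replicate 2 (y axis), both on log scales, for 24 optimal peaks of the domain, 13 peaks in all 3 relaxed lists but not the optimal one, and 4000 optimal peaks drawn at random from the genome, with a dashed line at equal values. Of the 24 domain points, 23 lie below the line, and the grey point above it is the Snrpn peak.

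Outside the optimal list, 13 peaks of the domain were present in all 3 relaxed lists, and 3 of them had a motif match. They included those at the starts of Snrpn, Ndn and Mkrn3 and the pair in Peg12. The strongest, at 60374183, had a signal of 23.9 with 13.3 and 13.5 in the replicates. It was in the conservative list although not in the optimal one, and lay in the 148.2 kb between copies A and B of the recurring site. Of the 78 relaxed peaks of replicate 1 and the 99 of replicate 2, 37 were in all 3 relaxed lists, 24 of them at optimal peaks.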

How the data were processed

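CTCF ChIP-seq of newborn stomach was deposited as 5 peak lists in mm10. Per the labels, 3 are relaxed lists (replicate 1, replicate 2, both together) and 2 are the optimal and conservative lists after IDR, a filter on how well peak ranks repeat. Which aligner, caller and IDR threshold were used is not given in the sources used here. Signal is the authors' deposited value for a peak, used to rank and describe peaks within a list, and at all 25 domain peaks the optimal list gives the summit and signal (within a relative tolerance of 0.0001) of the relaxed list of both replicates. The lists also hold a deposited −log10 q-value, from 0.270 to 5.12 in the optimal list, and, as an other value, the deposited summit offset from each peak's start, and positions are counted from 1. Read numbers were not used, so depth is unknown. Control libraries are not analysed here.

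Unplaced scaffolds were left out. Genes came from GENCODE M21, other starts and promoters from RefSeq on GRCm38.p6 and sequence from the same assembly. All 5 members were found by symbol. The motif matrix was aligned on 998 of 1000 peaks of chromosome 1. The thresholds (scores of 11.52 and 16.60) were those that 1% and 0.1% of 108257 genomic windows reached. These windows were evenly spaced on the other autosomes, with those centred within 300 bp of an optimal summit left out. Replicates were compared through as many of their strongest peaks as the optimal list holds, with summits within 100 bp counted as shared. Repeat masking is that of the reference. Scripts ran in Python 3.11.15 with matplotlib 3.10.9, pandas 2.3.3, numpy 2.4.6, numba 0.67.0 and scipy 1.17.1, and the motif and sharing steps were tested on simulated data. With 1 group there was no contrast and no test. Peaks named in full were those nearest each member, within 10 kb of a start, the 5 strongest, and those at the ends and inside of the 3 longest stretches. Part of the list of other genes is not reported here. The members and lists were chosen with earlier results of these data known. The recurring site, exact copies, strand runs, relaxed peaks within 1 kb, RefSeq starts and the division of the domain were added after values were seen.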

Additional observations from a re-analysis of the deposited data

How the results depend on the processing

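Of 31 alternative settings over 6 results, 23 left the value within the limits set for it and 8 moved it. The limits were a factor of 1.5 for counts and the exact interval of the main value for shares. For the longest stretch the limit was the standard deviation of the values with either replicate left out. That limit is narrow, so 1042 kb counted as moved from 1041 kb. No paired analysis was possible because there is only 1 group. Among optimal peaks above the median signal, the domain kept 16 peaks, and 100% of them were found in both replicates. There a different stretch was the longest, 1243 kb between the summits at 59245734 and 60488255, which includes the stretch between Ube3a and Snrpn. In the conservative list the longest stretch was 1128 kb, between 59245734 and 60374183, and 100% of the peaks were found in both replicates. Both settings favour peaks that rank high in each replicate, so these shares are in part built in. The shares over all peaks in these settings were not counted. The stretch of 1041 kb kept both its end peaks in these 2 settings. Leaving out a replicate gave 26 peaks either way, a longest stretch of 1041 to 1042 kb, 3 to 4 members near a peak, a motif share of 69.2% to 73.1% and a share of occupied matches of 9.69% to 10.7%. Snrpn was the member lost without replicate 2, and also in the conservative list. Within 1 kb of a start, 1 member (Ube3a) had a peak, and the share of all protein-coding genes at that distance was not counted. At the motif threshold reached by 0.1% of windows, 18 of 29 matches of the domain (62.1%, interval 42.3 to 79.3) had a peak. The share on the autosomes other than chromosome 1 was 52.3%, which lies within the interval. A stretch without an optimal peak is not one without binding, since the depth is unknown.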
